A study of Homo sapiens with 9 samples.

Results

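The genes described here encode the factors that recognise the 5′ cap of mRNAs and unwind their leaders, with EIF4A2 and its transcripts in the foreground. The 10 genes EIF4A1, EIF4A2, EIF4A3, EIF4E, EIF4E2, EIF4G1, EIF4G2, EIF4G3, EIF4EBP1 and EIF4EBP2 were taken by symbol from a table of 62666 genes, with their 197 transcripts out of 252876. The set was chosen by the measured transcript shares and level of EIF4A2, which switched between the cell lines, so every EIF4A2 value is given as a description and was not tested. The other 9 genes were tested.

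Polyadenylated RNA was sequenced from 3 human breast epithelial cell lines of 1 lineage, with 3 libraries per line and 9 in all. MCF10A is an immortalised, non-tumorigenic mammary epithelial line. MCF10AT1 is MCF10A carrying an activated HRAS oncogene and serves as a premalignant model, and MCF10Ca1a is a tumour-forming line derived from it through xenografts. All lines were grown with insulin, epidermal growth factor, hydrocortisone and cholera toxin, but MCF10AT1 received 2.5% horse serum and the others 5%, so line and serum cannot be told apart in comparisons with MCF10AT1. The lines stand for steps from benign to malignant breast epithelium. Each step is a single line, and a difference below is a difference between these lines.

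The 6 libraries of MCF10A and MCF10AT1 held between 62.9 M and 69.5 M counts (M for mega), and the MCF10Ca1a libraries only 32.9 M to 35.2 M. Levels are given as CPM, counts scaled to the size of the library. HRAS itself had a mean of 41.0 CPM in MCF10A, 97.6 in MCF10AT1 and 145 in MCF10Ca1a. The 7 breast epithelial markers were each at 1 CPM or more in all lines, and their sum ran from 3239 to 5588 CPM. Sums of 5 stromal fibroblast markers ran from 5.22 to 34.8 CPM, those of 3 endothelial markers from 2.82 to 49.4 CPM and those of 3 leukocyte markers from 3.63 to 44.3 CPM. The stromal sum was highest in MCF10AT1, where DCN had a mean of 30.6 CPM, against 4.41 in MCF10A and 0.169 in MCF10Ca1a. PECAM1 made up most of the endothelial sum and CD68 most of the leukocyte sum, while CDH5, PTPRC and CD3E were at or near 0, and no part of these genes in the results was tested. No 2 libraries held identical values. The labels do not say that replicates came from separate cultures, so p-values measure the spread between these samples, which may be technical.

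Translation of most mRNAs starts with the complex eIF4F. EIF4E binds the cap, EIF4G1 or its relative EIF4G3 forms the scaffold, and the DEAD-box helicase EIF4A1 or EIF4A2 unwinds the leader with energy from ATP. EIF4EBP1 and EIF4EBP2, which the kinase mTORC1 switches off by phosphorylation, hold EIF4E away from the scaffold. EIF4A2 has also been studied as a partner of the CCR4-NOT deadenylase in microRNA silencing, and EIF4A3 works elsewhere, as the core of the exon junction complex that is left on spliced mRNAs and takes part in nonsense-mediated decay (NMD) where it lies downstream of a stop codon. EIF4A2 and EIF4A1 are near copies in protein and differ in how their transcripts are spliced.

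EIF4A2 lies on the plus strand of chromosome 3 (chr3:186783205-186789900, GRCh38, GENCODE 29), and all of its 27 transcripts in the deposited tables matched that annotation. GENCODE calls 5 of them protein-coding, 4 NMD targets and 18 retained-intron transcripts. The introns also hold the small nucleolar RNA genes SNORD2, SNORA81, SNORA63 and SNORA4. The 5 transcripts with at least 5% of the gene's counts in some line were EIF4A2-201 and EIF4A2-205 (coding), EIF4A2-202 and EIF4A2-203 (NMD) and EIF4A2-219 (retained intron). The sequences that tell them apart are shown here from the GENCODE 29 transcripts, 5′ to 3′ on the plus strand.

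The coding pair EIF4A2-201 and EIF4A2-205 differs at the junction of exons 1 and 2 (chr3:186783620-186784443), where EIF4A2-205 uses a splice acceptor 3 bases upstream. The capitals mark the bases that EIF4A2-201 lacks.
EIF4A2-201: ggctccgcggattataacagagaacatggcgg
EIF4A2-205: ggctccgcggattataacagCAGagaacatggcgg
They give open reading frames of 407 and 408 codons. They also differ at their ends, as EIF4A2-201 runs from 186783547 to 186789900 (1919 bases) and EIF4A2-205 from 186783577 to 186789897 (1889 bases).

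EIF4A2-203 skips exon 4, which is 140 bases long (chr3:186784962-186785101) and not a multiple of 3. The exon holds the codons of ATP-binding motif I of DEAD-box helicases, shown in capitals.
EIF4A2 exon 4: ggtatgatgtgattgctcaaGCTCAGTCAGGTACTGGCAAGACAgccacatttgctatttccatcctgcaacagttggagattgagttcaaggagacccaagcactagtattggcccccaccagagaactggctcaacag
Without it, the last 30 bases of exon 3 run into exon 5 out of frame, and a stop codon (capitals) ends the frame 83 bases into exon 5, after 96 codons.
EIF4A2-203: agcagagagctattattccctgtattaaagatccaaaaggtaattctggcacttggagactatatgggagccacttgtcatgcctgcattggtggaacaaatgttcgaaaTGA

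EIF4A2-202 keeps exon 4 but adds a cassette exon of 107 bases (chr3:186788310-186788416) between exons 10 and 11. The stop codon (capitals) comes 10 bases into it, 97 bases before its end and after 362 codons, so the annotated frame lacks the end of the protein. Shown are the last 30 bases of exon 10 and the cassette exon up to the stop.
EIF4A2-202: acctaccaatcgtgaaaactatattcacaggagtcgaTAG
EIF4A2-219 is 5327 bases long in 4 exons, because most introns stay in, and has no annotated reading frame.

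The make-up of EIF4A2 RNA differed between the 3 lines, with MCF10AT1 between the other lines in the mean share of each of the 5 main transcripts. As a share of the gene's counts, the coding transcript EIF4A2-201 was listed at 0 in all 3 MCF10A libraries, at 11.3%, 11.4% and 9.30% in MCF10AT1 and at 24.0%, 20.3% and 26.6% in MCF10Ca1a. A count of 0 allows a share of up to 0.0149% to 0.0220% of the MCF10A counts for counting error alone. This limit does not cover the assignment of reads between EIF4A2-201 and EIF4A2-205, which differ only at that junction and at their ends. EIF4A2-205 made up 12.4%, 11.1% and 10.9% in MCF10A, 12.4%, 13.3% and 13.7% in MCF10AT1, against 15.9%, 16.6% and 13.8% in MCF10Ca1a, with MCF10AT1 between and overlapping MCF10A.

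The transcripts not annotated as protein-coding went in opposite directions. EIF4A2-203, which lacks exon 4, took 11.1%, 13.7% and 13.0% in the MCF10A libraries, 22.5%, 22.2% and 21.8% in those of MCF10AT1 and 26.1%, 28.0% and 24.1% in those of MCF10Ca1a. EIF4A2-202 with the cassette exon went the other way, with 32.5%, 30.5% and 30.1% in MCF10A, 20.8%, 21.7% and 20.6% in MCF10AT1, against 12.7%, 15.1% and 12.5% in MCF10Ca1a. The libraries of the lines did not overlap for either transcript. EIF4A2-219 took 27.7%, 29.9% and 31.3% in MCF10A, 20.8%, 19.3% and 22.1% in MCF10AT1, against 11.5%, 10.8% and 10.9% in MCF10Ca1a, again without overlap. The 22 transcripts under 5% summed to 15.2%, 12.3% and 10.3% in the same order of lines.

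To avoid resting on single transcripts, the 27 were placed in 4 classes by their annotated exons: 2 with the cassette exon, 6 with the junction that skips exon 4, 14 other retained-intron transcripts and the 5 coding ones. The coding class held 11.7% ± 0.675 of EIF4A2 counts in MCF10A, 23.8% ± 0.842 in MCF10AT1 and 39.2% ± 1.82 in MCF10Ca1a (SD, n = 3). The exon 4-skipped class held 18.1% ± 0.209, 26.8% ± 0.126 and 29.8% ± 0.882. The cassette class went down from 35.4% ± 1.15 through 25.2% ± 0.585 to 17.7% ± 1.41. The retained-intron class went down from 34.7% ± 2.01 through 24.2% ± 1.53 to 13.3% ± 0.814. In counts, no class overlapped between any 2 lines, and the coding share stood in the order MCF10A, MCF10AT1, MCF10Ca1a whichever of EIF4A2-201 and EIF4A2-205 received the reads. The division of reads between the classes is also an estimate, and its uncertainty was not used.

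**Figure D1:**
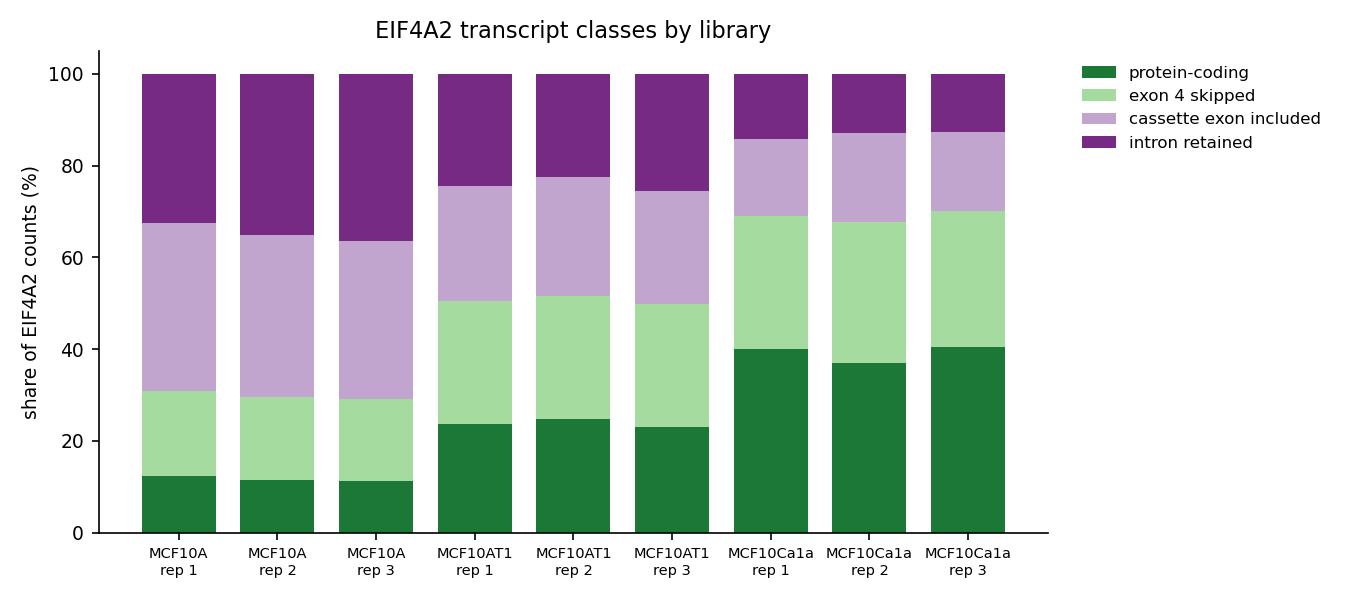
Share of EIF4A2 counts (%, vertical axis) in each of the 9 libraries, divided into the protein-coding, exon 4-skipped, cassette-exon and intron-retaining transcript classes. The coding segment is near 12% in the MCF10A libraries, near 24% in MCF10AT1 and near 39% in MCF10Ca1a, while the intron-retaining segment is the smallest in MCF10Ca1a.

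A long transcript draws more reads per molecule, so the classes were also set out in TPM, a unit that divides by transcript length and scales each library to the same sum. In that unit the retained-intron class was smaller, with 24.7%, 17.1% and 10.3% of EIF4A2 in MCF10A, MCF10AT1 and MCF10Ca1a, and the cassette class larger, with 41.3%, 30.5% and 23.1%. The coding class held 11.9%, 22.3% and 35.0%. The order of the line means was the same in both units for all 4 classes, but in TPM the exon 4-skipped class overlapped between MCF10AT1 (up to 30.53%) and MCF10Ca1a (from 30.47%).

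Over all genes, retained-intron transcripts took 3.18% of counts in MCF10A, 3.30% in MCF10AT1 and 3.14% in MCF10Ca1a, and the libraries ranged from 2.81% to 3.47%. NMD-annotated transcripts took 2.28%, 2.31% and 2.55% of all counts. Within EIF4A2, all transcripts annotated as retained-intron together went from 39.9% to 29.05% to 18.0%, and the NMD-annotated ones from 48.4% to 47.2% to 42.8%. In counts, the lines overlapped in the retained-intron share of the whole library and not in that of EIF4A2. In TPM, the share of the whole library was 4.25% to 4.48% in the MCF10A libraries, 4.26% to 4.36% in those of MCF10AT1 and 4.71% to 4.86% in those of MCF10Ca1a, which were apart and higher. The part of the library-wide shares in the EIF4A2 values was not tested.

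EIF4A2 was also more abundant in the later lines. Its level was 213, 259 and 289 CPM in MCF10A, 352, 353 and 374 CPM in MCF10AT1 and 420, 428 and 424 CPM in MCF10Ca1a, and the lines did not overlap. The fitted log2 difference from MCF10A was 0.50 for MCF10AT1 and 0.74 for MCF10Ca1a, and MCF10Ca1a stood 0.24 above MCF10AT1. MCF10A replicate 1 was the lowest, and without it the differences from MCF10A were 0.39 and 0.62. In log2(TPM + 1) MCF10Ca1a stood 0.999 above MCF10A and 0.57 above MCF10AT1. In bulk RNA, a level per cell and a share of cells cannot be told apart.

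The 2 changes together placed the gain of EIF4A2 RNA in the coding and exon 4-skipped classes. Those 2 classes summed to 75.4 ± 9.46 CPM in MCF10A, 182 ± 4.33 CPM in MCF10AT1 and 292 ± 4.46 CPM in MCF10Ca1a (SD, n = 3). The cassette and retained-intron classes summed to 178 ± 29.1 CPM in MCF10A, 178 ± 9.03 CPM in MCF10AT1 and 131 ± 5.80 CPM in MCF10Ca1a. In TPM the second sum was 154, 149 and 156, with overlapping libraries, so its lower level in MCF10Ca1a was seen in CPM and not in TPM.

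The coding class alone was 26.5, 29.5 and 32.5 CPM in MCF10A, 83.5, 87.1 and 86.1 CPM in MCF10AT1 and 168, 159 and 171 CPM in MCF10Ca1a. Its mean was 2.90-fold higher in MCF10AT1 and 5.63-fold higher in MCF10Ca1a than in MCF10A, against 2.10-fold and 2.75-fold for the exon 4-skipped class. In TPM the coding ratios were 2.52 and 5.88. The cassette class had ratios of 1.01 and 0.839 in CPM, and the retained-intron class 0.984 and 0.636. In TPM these were 0.992 and 1.12 for the cassette class and 0.926 and 0.834 for the retained-intron class.

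**Figure D2:**
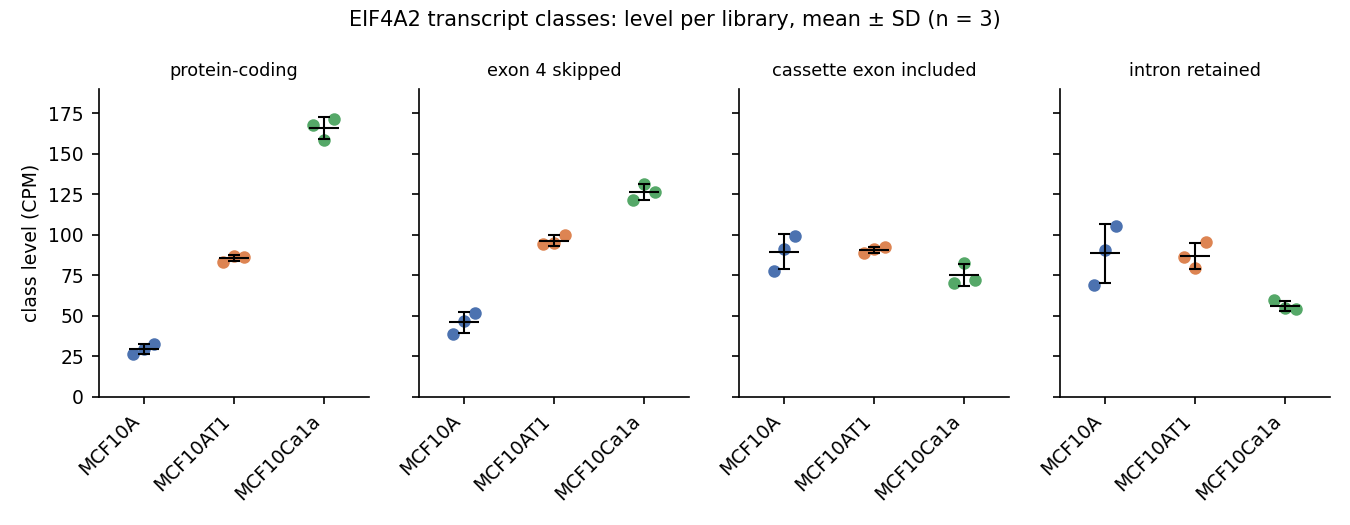
Level of each EIF4A2 transcript class in CPM (vertical axis, common scale from 0) for the 3 libraries of each line, with mean and SD. The coding and exon 4-skipped classes are separated in all lines, while the cassette and intron-retaining classes overlap between MCF10A and MCF10AT1.

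EIF4A1, the more abundant paralog (chr17:7572706-7579005), followed another course. Its level was 1408, 1498 and 1506 CPM in MCF10A, 1713, 1712 and 1502 CPM in MCF10AT1 and 1086, 1079 and 1140 CPM in MCF10Ca1a, which was below all other libraries. It fell in MCF10Ca1a by 0.42 ± 0.07 (log2, SE) against MCF10A (edgeR adjusted p = 4.67e-05) and by 0.58 ± 0.07 against MCF10AT1 (edgeR adjusted p = 2.04e-06). The rise in MCF10AT1 of 0.16 ± 0.07 only just passed (edgeR adjusted p = 0.0491) and was lost in 15 of 20 alternatives, among them the replicate block (edgeR adjusted p = 0.0657) and leaving out any 1 library other than MCF10A replicate 3 and MCF10AT1 replicate 3 (edgeR adjusted p from 0.0615 to 0.171). On TPM it was 0.03 (limma adjusted p from 0.721 to 0.844). A readthrough gene, SENP3-EIF4A1, held up to 1.18% of the counts of EIF4A1.

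The balance of the helicase pair differed between the lines. The ratio of EIF4A2 to EIF4A1 in TPM was 0.216 ± 0.0276 in MCF10A, 0.284 ± 0.0298 in MCF10AT1 and 0.505 ± 0.0243 in MCF10Ca1a (SD, n = 3), and the libraries of the lines did not overlap. Counting only transcripts annotated as coding, the ratio was 0.0273, 0.0669 and 0.187. With 3 libraries against 3 an exact permutation test cannot go below p = 0.10, so ratios are given without a p.

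EIF4A1 has an exon 4 of the same 140 bases in length (chr17:7575119-7575258), of which 104 bases (74.3%) match that of EIF4A2, with motif I at the same place in capitals.
EIF4A1 exon 4: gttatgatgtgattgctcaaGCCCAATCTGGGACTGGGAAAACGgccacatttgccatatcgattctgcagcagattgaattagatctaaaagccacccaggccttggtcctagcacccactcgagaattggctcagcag
The EIF4A1 transcript that skips it, EIF4A1-218 (NMD-annotated, picked after its values were seen), took 0.906%, 1.14% and 0.956% of the gene in MCF10A, 1.10%, 1.07% and 1.32% in MCF10AT1, against 1.61%, 1.54% and 1.66% in MCF10Ca1a. Its odds rose in MCF10Ca1a against MCF10A by 0.70 ± 0.18 (log2, SE; limma adjusted p = 0.0359), a call that was lost in 14 of 17 alternatives, among them without any 1 of the 9 libraries (adjusted p over all 17 from 0.0238 to 0.320). The difference was not called in MCF10AT1 against MCF10A (limma adjusted p = 0.659) or in MCF10Ca1a against MCF10AT1 (limma adjusted p = 0.131). Exon 4 skipping in EIF4A1 thus stayed under 2% of the gene, where it reached 29.8% in EIF4A2.

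The main transcript EIF4A1-201 held 90.6%, 89.8% and 88.7% of EIF4A1 counts in MCF10A, MCF10AT1 and MCF10Ca1a and was not called. The called transcript with the largest share difference was the coding fragment EIF4A1-229, at 0.346% ± 0.1004 in MCF10A, 1.22% ± 0.147 in MCF10AT1 and 1.30% ± 0.340 in MCF10Ca1a (SD, n = 3). Its odds rose against MCF10A in MCF10AT1 (limma adjusted p = 0.0275, lost in 8 of 17 alternatives, among them without any 1 of MCF10A replicates 2 and 3, the MCF10AT1 libraries and MCF10Ca1a replicate 2) and in MCF10Ca1a (limma adjusted p = 0.00424, kept in 17 of 17).

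EIF4A3, the exon junction helicase (chr17:80135214-80147183), was at 119, 118 and 115 CPM in MCF10A, 115, 112 and 99.6 CPM in MCF10AT1 and 145, 143 and 147 CPM in MCF10Ca1a. MCF10Ca1a stood above the other lines, which overlapped. It rose in MCF10Ca1a by 0.31 ± 0.06 (log2, SE) against MCF10A (edgeR adjusted p = 0.000213) and by 0.41 ± 0.06 against MCF10AT1 (edgeR adjusted p = 1.51e-05). The difference of -0.11 ± 0.06 between MCF10AT1 and MCF10A was not called (edgeR adjusted p = 0.126), though limma on TPM called it at -0.26 (adjusted p from 0.0231 to 0.0453). EIF4A3-209 held 88.6%, 88.2% and 85.4% of the gene, and none of its 7 tested transcripts was called in any comparison.

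**Figure D3:**
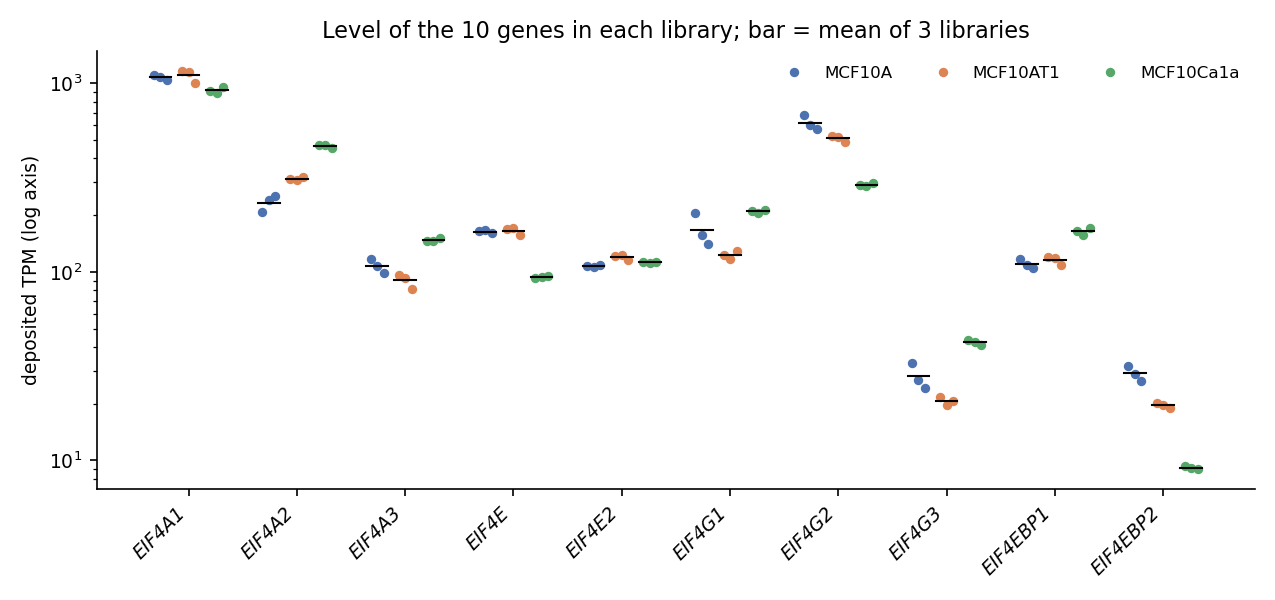
Deposited TPM (log axis) of the 10 genes in each library, coloured by line, with the mean of 3 libraries as a bar. EIF4A2, EIF4G3 and EIF4EBP1 are highest in MCF10Ca1a, and EIF4EBP2, EIF4G2 and EIF4E are lowest there.

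At gene level, 8 of the 9 tested genes were called in MCF10AT1 against MCF10A, where 61.6% of the 17910 genes tested were called. In MCF10Ca1a against MCF10A it was 8 of 9 beside 80.9%, and in MCF10Ca1a against MCF10AT1 9 of 9 beside 78.4%. The first count was 5 without MCF10A replicate 2, MCF10AT1 replicate 1 or MCF10AT1 replicate 2. With so many genes called, the number of calls sets these factors apart from other genes in no comparison, and sizes and directions carry the description. The 3 comparisons share libraries and are not independent of each other.

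The cap-binding protein EIF4E (chr4:98871684-98930637) fell in the tumour-forming line. It was at 140, 151 and 152 CPM in MCF10A, 167, 171 and 162 CPM in MCF10AT1 and 77.9, 78.5 and 78.6 CPM in MCF10Ca1a. The fall in MCF10Ca1a was 0.530-fold of MCF10A (log2 change -0.92 ± 0.05, edgeR adjusted p = 7.28e-10) and 0.470-fold of MCF10AT1 (-1.09 ± 0.05, edgeR adjusted p = 1.57e-10). EIF4E rose by 0.17 ± 0.05 in MCF10AT1 (edgeR adjusted p = 0.00741), but by 0.01 on TPM (limma adjusted p from 0.856 to 0.916). The pseudogene EIF4EP2 held up to 2.38% of the counts of EIF4E.

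EIF4E-203 held 92.6%, 93.1% and 92.7% of EIF4E counts across the lines and was not called. The smaller coding transcript EIF4E-208 took 1.28%, 1.30% and 1.78% in MCF10A, 1.27%, 1.47% and 1.83% in MCF10AT1, against 2.72%, 3.47% and 2.76% in MCF10Ca1a. Its odds rose in MCF10Ca1a against MCF10A by 1.08 ± 0.23 (log2, SE; limma adjusted p = 0.0207) and against MCF10AT1 by 1.001 ± 0.235 (limma adjusted p = 0.0333). These calls were lost in 5 and 11 of 17 alternatives, the first without MCF10A replicate 1, MCF10A replicate 2 or MCF10Ca1a replicate 2 (limma adjusted p from 0.0644 to 0.0820) and the second without any 1 library but MCF10A replicate 3.

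EIF4E2 (4EHP, chr2:232550052-232583644) binds the cap but not the scaffold EIF4G and represses the mRNAs it holds. Its level was 113, 116 and 121 CPM in MCF10A, 129, 129 and 125 CPM in MCF10AT1 and 97.8, 97.1 and 98.1 CPM in MCF10Ca1a, without overlap. It rose in MCF10AT1 by 0.13 ± 0.05 (edgeR adjusted p = 0.0285), a call lost without MCF10A replicate 2, MCF10AT1 replicate 1 or MCF10AT1 replicate 2 (edgeR adjusted p from 0.0832 to 0.0962). It fell in MCF10Ca1a by 0.26 ± 0.05 against MCF10A (edgeR adjusted p = 0.000162) and by 0.39 ± 0.05 against MCF10AT1 (edgeR adjusted p = 3.78e-06). The direction against MCF10A was not the same on TPM, where MCF10Ca1a stood 0.06 higher (limma adjusted p from 0.0918 to 0.338), and the call was lost on length-scaled and scaled counts (edgeR adjusted p = 0.108 and 0.148). The fall against MCF10AT1 was 0.09 on TPM and was lost on log2(TPM + 1) and log2(TPM + 0.1) with the filter (limma adjusted p = 0.110 and 0.182), but called without it (limma adjusted p = 0.0251). In TPM the lines were at 108 ± 1.47, 120 ± 3.79 and 112 ± 1.21 (SD, n = 3).

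EIF4E2 also differed in its transcripts. In MCF10AT1 against MCF10A, 3 of its 13 tested transcripts were called, beside 1.51% of the 73815 transcripts tested over all genes. The lines differed in exon 3, which is 135 bases long (chr2:232557884-232558018), a multiple of 3, so that skipping it keeps the frame.
EIF4E2 exon 3: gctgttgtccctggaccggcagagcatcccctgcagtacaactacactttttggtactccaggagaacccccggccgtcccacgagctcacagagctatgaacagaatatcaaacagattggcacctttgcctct
The 3 coding transcripts that skip it, EIF4E2-203, EIF4E2-204 and EIF4E2-205, were examined after their values were seen.

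Of the EIF4E2 counts, they together took 0%, 0% and 1.33% in the MCF10A libraries, 10.5%, 8.99% and 10.6% in those of MCF10AT1 and 7.27%, 4.63% and 5.94% in those of MCF10Ca1a. In counts, all libraries of MCF10AT1 and MCF10Ca1a lay above those of MCF10A, and those of MCF10AT1 above those of MCF10Ca1a. The order of MCF10AT1 and MCF10Ca1a rested on EIF4E2-203, since without it, a choice made after seeing the data, the sum was 4.58% ± 0.777 in MCF10AT1 and 5.94% ± 1.32 in MCF10Ca1a (SD, n = 3), with overlap. In TPM the shares were 0.735% ± 1.27, 10.7% ± 1.38 and 8.68% ± 1.89 (SD, n = 3), and MCF10AT1 (9.12% to 11.6%) and MCF10Ca1a (6.84% to 10.6%) overlapped. EIF4E2 transcripts without a match in GENCODE 29 held 18.2%, 12.5% and 14.2% of counts and could not be placed in either group.

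The transcripts behind this sum did not move alike. EIF4E2-203 was at 5.37%, 5.30% and 5.65% in MCF10AT1 and listed at 0 in the 6 libraries of the other lines, where a count of 0 allows up to 0.0356% to 0.0918%. EIF4E2-206, which keeps exon 3 and ends at the same stop codon, was listed at 0 in MCF10AT1 and took 6.01%, 5.89% and 6.52% in MCF10A and 8.49%, 8.57% and 7.53% in MCF10Ca1a. Both were called in MCF10AT1 against MCF10A (limma adjusted p = 5.23e-07 for each) and in MCF10Ca1a against MCF10AT1 (limma adjusted p = 2.96e-07 and 1.92e-07), and under 18 of 18 alternatives. Their sum was 6.14% ± 0.337 in MCF10A, 5.44% ± 0.188 in MCF10AT1 and 8.20% ± 0.576 in MCF10Ca1a (SD, n = 3), highest in MCF10Ca1a and without overlap between lines. The deposited values carry no measure of how surely reads were assigned between these transcripts, so a value of 0 may also reflect that assignment, which was not tested.

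EIF4E2-205 was at 1.46% ± 0.201 in MCF10AT1 (SD, n = 3), listed at 0 elsewhere, and called in MCF10AT1 against MCF10A (limma adjusted p = 1.99e-06). The same limit of the p-value holds for it. EIF4E2-204 took 0.445% ± 0.770 in MCF10A, all of it in replicate 3, then 3.12% ± 0.586 in MCF10AT1 and 5.94% ± 1.32 in MCF10Ca1a. It was called in MCF10Ca1a against MCF10A (limma adjusted p = 0.0399), a call lost in 12 of 18 alternatives, among them without any 1 library other than MCF10A replicate 3, and stronger without that one (limma adjusted p = 2.1e-05).

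The longest of the main EIF4E2 transcripts, EIF4E2-202, ends in a distal last exon of 2741 bases, and its share was lowest in MCF10Ca1a. It took 21.8%, 19.3% and 18.5% in MCF10A, 17.0%, 15.4% and 14.9% in MCF10AT1, against 8.33%, 10.9% and 6.08% in MCF10Ca1a, without overlap. Its odds fell in MCF10Ca1a by 1.46 ± 0.26 (log2, SE) against MCF10A (limma adjusted p = 0.00884, kept in 18 of 18 alternatives) and by 1.06 ± 0.26 against MCF10AT1 (limma adjusted p = 0.0375, lost in 12 of 18, among them without any 1 library but MCF10Ca1a replicate 2). EIF4E2-201, the main transcript, held 53.7%, 59.97% and 61.7% and was not called.

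**Figure D4:**
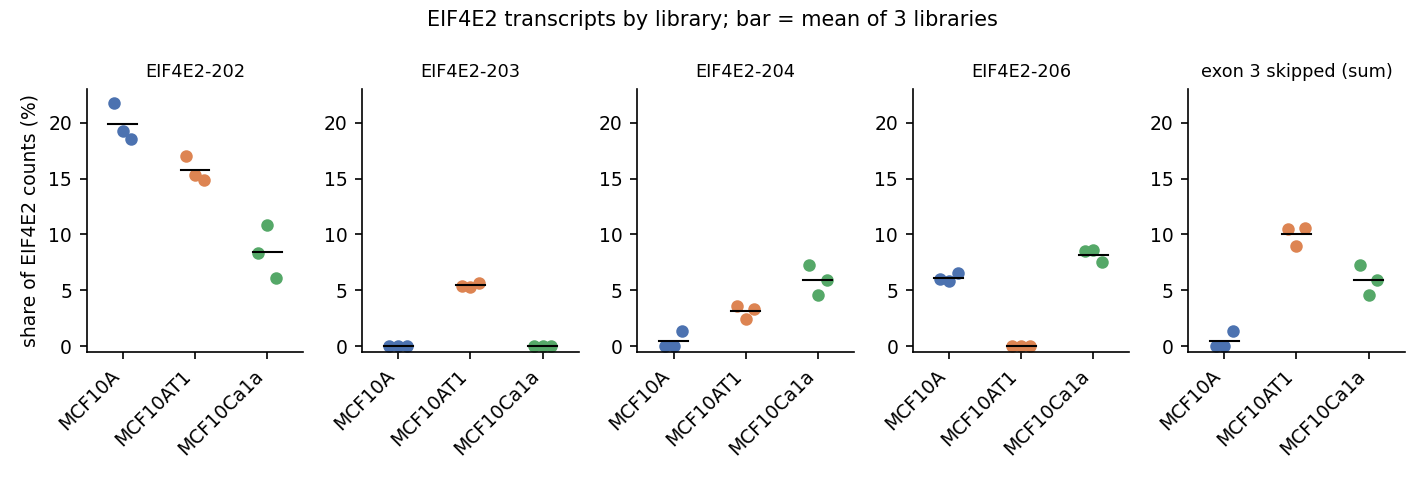
Share of EIF4E2 counts (%, vertical axis) of 4 transcripts and of the 3 exon 3-skipping transcripts together, by library and line, with the mean as a bar. EIF4E2-203 is above 0 in MCF10AT1 only and EIF4E2-206 in the other lines only, while EIF4E2-202 is lowest in MCF10Ca1a.

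The scaffolds went in different directions. EIF4G1 (chr3:184314495-184335358), the main eIF4F scaffold, was at 864, 689 and 652 CPM in MCF10A, 577, 570 and 607 CPM in MCF10AT1 and 823, 813 and 837 CPM in MCF10Ca1a. MCF10A replicate 1 stood above the MCF10Ca1a libraries and the other MCF10A libraries below them. EIF4G1 fell in MCF10AT1 by 0.33 ± 0.09 (edgeR adjusted p = 0.00465) and rose from MCF10AT1 to MCF10Ca1a by 0.50 ± 0.09 (edgeR adjusted p = 0.000132). MCF10Ca1a against MCF10A was not called at 0.17 ± 0.09 (edgeR adjusted p = 0.0941). Without MCF10A replicate 1 it was called at 0.28 (edgeR adjusted p = 5.34e-05), and 5 other alternatives called it as well.

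EIF4G3 (chr1:20806292-21176888), a less abundant scaffold that also binds EIF4E, had a pattern like that of EIF4G1. It was at 137, 116 and 110 CPM in MCF10A, 92.5, 89.1 and 93.4 CPM in MCF10AT1 and 165, 161 and 161 CPM in MCF10Ca1a, without overlap. It fell in MCF10AT1 by 0.40 ± 0.07 (edgeR adjusted p = 0.000203) and rose in MCF10Ca1a by 0.42 ± 0.07 against MCF10A (edgeR adjusted p = 7.32e-05) and by 0.82 ± 0.07 against MCF10AT1 (edgeR adjusted p = 9.37e-08).

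EIF4G2 (DAP5, chr11:10797050-10809110) lacks the EIF4E-binding part and serves cap-independent and alternative initiation. It was at 1282, 1230 and 1211 CPM in MCF10A, 1142, 1132 and 1086 CPM in MCF10AT1 and 522, 531 and 539 CPM in MCF10Ca1a, less than in any other library. The change in MCF10Ca1a was -1.23 ± 0.05 against MCF10A (0.428-fold, edgeR adjusted p = 7.18e-11) and -1.08 ± 0.05 against MCF10AT1 (0.474-fold, edgeR adjusted p = 3.81e-10). The fall in MCF10AT1 was 0.15 ± 0.05 (edgeR adjusted p = 0.0288) and was lost in 7 of 20 alternatives, among them without MCF10A replicate 2, MCF10Ca1a replicate 2 or any 1 MCF10AT1 library (edgeR adjusted p from 0.0555 to 0.0681).

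In TPM, EIF4G2 made up 76.1% ± 1.79 of the 3 scaffold genes in MCF10A, 78.1% ± 1.29 in MCF10AT1 and 53.5% ± 0.318 in MCF10Ca1a (SD, n = 3). EIF4G1 made up 20.5% ± 1.64, 18.7% ± 1.19 and 38.7% ± 0.186, and EIF4G3 3.42%, 3.15% and 7.80%. MCF10Ca1a was apart from the other lines for each gene, and EIF4G1 and EIF4G2 overlapped between MCF10A and MCF10AT1. From CPM, EIF4G2 made up 59.3%, 62.3% and 35.0%, EIF4G1 34.9%, 32.5% and 54.3%, and EIF4G3 5.77%, 5.10% and 10.7%. The largest of the 3 in MCF10Ca1a thus depended on the unit.

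Among scaffold transcripts, EIF4G1-202 held 52.1%, 53.4% and 49.3% of its gene and EIF4G2-201 81.0%, 81.6% and 83.04%. EIF4G3-201 held 37.8%, 34.1% and 33.1%, and none of these transcripts was called. EIF4G3 transcripts without a match in GENCODE held 34.2%, 39.7% and 38.1% of its counts. An unmatched transcript held 36.2%, 33.5% and 41.0% in the MCF10AT1 libraries, where EIF4G3-201 held 33.5%, 35.9% and 32.8%. Another took 0.176%, 0.189% and 0% in MCF10A, 0%, 2.40% and 0.327% in MCF10AT1, against 5.18%, 4.88% and 5.06% in MCF10Ca1a. EIF4G3-205 had the largest called difference, with 15.6%, 12.8% and 13.0% in MCF10A, 6.37%, 6.87% and 8.20% in MCF10AT1, against 12.6%, 14.4% and 13.8% in MCF10Ca1a. Its odds were higher in MCF10Ca1a than in MCF10AT1 by 1.04 ± 0.19 (log2, SE; limma adjusted p = 0.0143), a call lost in 5 of 18 alternatives, among them without MCF10AT1 replicate 1 or 2 (limma adjusted p = 0.0674 and 0.0643). MCF10AT1 against MCF10A was not called (limma adjusted p = 0.0525), but 3 of 18 alternatives called it (limma adjusted p from 0.0148 to 0.0381).

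EIF4G1-206 took 4.07%, 3.78% and 3.08% in MCF10A, 1.62%, 2.95% and 2.67% in MCF10AT1, against 5.21%, 5.23% and 6.96% in MCF10Ca1a. It was called in MCF10Ca1a against MCF10AT1 (1.35 ± 0.29, limma adjusted p = 0.0246), a call lost in 9 of 18 alternatives, among them without any 1 of MCF10A replicate 2, MCF10AT1 replicates 1 and 3 and the MCF10Ca1a libraries. EIF4G2-221, at 0.0154% in MCF10A and 0.0655% in MCF10Ca1a, was the called EIF4G2 transcript with the largest difference, on 5.50 to 15.6 counts per library. It was called in MCF10Ca1a against MCF10A (limma adjusted p = 0.0167), but not without MCF10A replicate 1 or 2 or MCF10Ca1a replicate 3 (limma adjusted p from 0.0545 to 0.0626). It was also called in MCF10Ca1a against MCF10AT1 (limma adjusted p = 0.0319), a call lost in 12 of 16 alternatives, among them without any 1 library but MCF10Ca1a replicate 1.

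The inhibitors of EIF4E moved apart. EIF4EBP1 (4E-BP1, chr8:38030341-38060365) was at 72.1, 70.6 and 72.4 CPM in MCF10A, 86.1, 85.9 and 79.9 CPM in MCF10AT1 and 102, 94.1 and 106 CPM in MCF10Ca1a, without overlap. It rose by 0.23 ± 0.05 in MCF10AT1 (edgeR adjusted p = 0.00258), by 0.49 ± 0.06 in MCF10Ca1a against MCF10A (edgeR adjusted p = 1.66e-06) and by 0.26 ± 0.06 against MCF10AT1 (edgeR adjusted p = 0.000622). On TPM the first of these was 0.07 (limma adjusted p from 0.420 to 0.519).

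EIF4EBP2 (4E-BP2, chr10:70404379-70428618) had the largest change of the 9 tested genes in each comparison. It was at 130, 126 and 121 CPM in MCF10A, 94.6, 93.3 and 92.1 CPM in MCF10AT1 and 37.3, 36.6 and 36.7 CPM in MCF10Ca1a. It fell by 0.43 ± 0.05 in MCF10AT1 (edgeR adjusted p = 2.47e-06), and MCF10Ca1a stood at 0.293-fold of MCF10A (-1.77 ± 0.05, edgeR adjusted p = 6.37e-13) and 0.395-fold of MCF10AT1 (-1.34 ± 0.05, edgeR adjusted p = 1.39e-11). The same calls were made in 20 of 20 alternatives. EIF4EBP2 has 1 transcript in the table, so its shares could not be tested, and EIF4EBP1-201 held 99.1%, 99.8% and 99.7% of EIF4EBP1.

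The balance of EIF4EBP1 and EIF4E RNA differed between the lines. The ratio of EIF4EBP1 to EIF4E in TPM was 0.674 ± 0.0367 in MCF10A, 0.700 ± 0.00741 in MCF10AT1 and 1.75 ± 0.0620 in MCF10Ca1a (SD, n = 3), with overlap between the first 2 lines and none with MCF10Ca1a. The ratio of EIF4EBP1 to EIF4EBP2 was 3.82 ± 0.141, 5.89 ± 0.186 and 18.0 ± 0.888 in TPM. From CPM, which does not divide by length, it was 0.570, 0.899 and 2.73, so the order of the lines was the same but the size of the ratio depended on the unit. These are RNA levels, and the phosphorylation that controls both inhibitors was not measured.

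**Figure D5:**
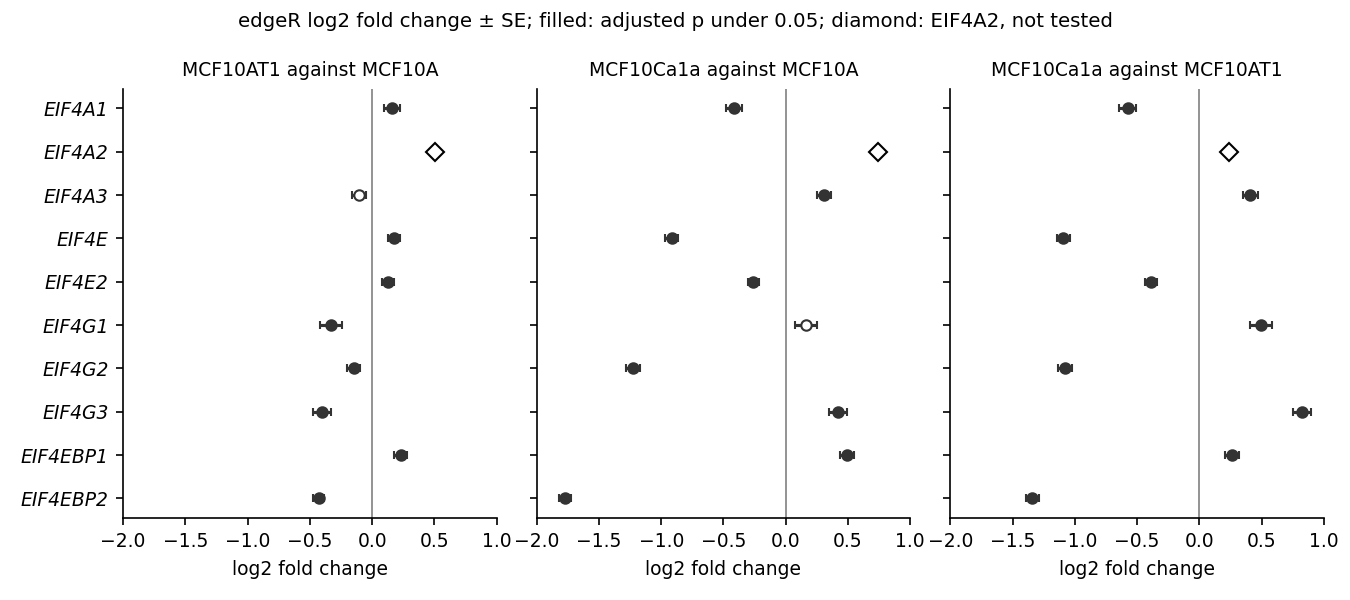
Fitted log2 fold change with SE (horizontal axis) of the 10 genes in the 3 comparisons, filled where the edgeR adjusted p is under 0.05 and with EIF4A2 as an untested diamond. EIF4EBP2, EIF4G2 and EIF4E lie farthest to the left in both MCF10Ca1a comparisons, and EIF4G3 changes side between the first and the third panel.

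Of the 117 tested transcripts of the 9 genes, 4 were called in MCF10AT1 against MCF10A beside 1.51% of the 73815 transcripts tested, 19 in MCF10Ca1a against MCF10A beside 18.3%, and 20 in MCF10Ca1a against MCF10AT1 beside 13.6%. These were 3 higher and 1 lower (0.822% and 0.692% of all), 13 higher and 6 lower (9.36% and 8.98%), and 12 higher and 8 lower (6.56% and 7.02%). Many were of rare forms, as 10 of the 19 and 8 of the 20 were under 1% of their gene in both lines. In MCF10Ca1a against MCF10A, 2 calls, EIF4E2-203 and EIF4E2-205, were of transcripts listed at 0 in both lines, where the unequal gene totals and the added 0.5 counts alone set the odds, and they are not changes. The 19 were 11 and 12 without MCF10A replicates 1 and 2, and the 20 were between 7 and 13 without any 1 of the MCF10AT1 and MCF10Ca1a libraries or MCF10A replicate 2. With the replicate block they were 14 and 8. Restricted to transcripts with at least 5% of their gene, a limit set after the data were seen, 3, 7 and 5 of 21 were called beside 5.43%, 31.8% and 25.8% of all.

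The other genes of the pathway were counted in 7 lists, beside 29.8% of all genes called higher and 31.8% called lower in MCF10AT1 against MCF10A, 39% and 41.9% in MCF10Ca1a against MCF10A, and 38% and 40.3% in MCF10Ca1a against MCF10AT1. The median log2 change of all genes was -0.00, -0.05 and -0.04 in these comparisons. In log2(TPM + 0.1) it was -0.11, 0.10 and 0.21, so directions near 0 depend on the unit. In the following, the named genes are the called gene with the largest rise and the one with the largest fall in a list.

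Cap-binding relatives and regulators of EIF4E, 10 tested of 11, showed 2 rises and 5 falls in MCF10AT1 (median -0.13), led by ANGEL1 (0.39 ± 0.05, edgeR adjusted p = 1.73e-05) and EIF4E3 (-0.49 ± 0.09, edgeR adjusted p = 0.000309). In MCF10Ca1a against MCF10A it was 6 and 3 (median 0.42), with MKNK2, a kinase of EIF4E, at 0.97 ± 0.06 and EIF4E3, another cap-binding relative, at -1.39 ± 0.10. In MCF10Ca1a against MCF10AT1 it was 7 and 2 (median 0.36), with EIF4EBP3, the third 4E-BP, at 0.72 ± 0.11 and EIF4E3 at -0.90 ± 0.10.

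Cofactors of eIF4A and poly(A)-binding genes, 10 of 10 tested, were evenly divided, with 3 rises and 3 falls in MCF10AT1 (median 0.03), 5 and 4 in MCF10Ca1a against MCF10A (median 0.11) and 4 and 4 against MCF10AT1 (median 0.03). PAIP2B, an inhibitor of poly(A)-binding protein, rose the most in each comparison, by 0.56 ± 0.08, 1.55 ± 0.08 and 0.98 ± 0.08. DDX3X, another helicase, fell by 0.40 ± 0.07 in MCF10AT1. PDCD4, which blocks eIF4A and is a tumour suppressor, fell in MCF10Ca1a by 0.93 ± 0.07 against MCF10A and by 0.60 ± 0.07 against MCF10AT1 (edgeR adjusted p = 1.19e-08 and 1.48e-06).

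The 13 eIF3 subunits showed 5 rises and 3 falls in MCF10AT1 (median -0.00), 9 and 3 in MCF10Ca1a against MCF10A (median 0.29) and 5 and 3 against MCF10AT1 (median 0.10). EIF3K rose by 0.82 ± 0.06 and EIF3A fell by 0.26 ± 0.09 in MCF10AT1. EIF3F rose in MCF10Ca1a by 0.80 ± 0.05 and 0.57 ± 0.05, and EIF3E fell by 0.69 ± 0.09 and 0.55 ± 0.09, against MCF10A and MCF10AT1.

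Of 15 genes for eIF1, eIF2, eIF2B, eIF5 and eIF6, 8 rose and 3 fell in MCF10AT1 (median 0.17), 6 rose and 8 fell in MCF10Ca1a against MCF10A (median -0.13) and 4 rose and 6 fell against MCF10AT1 (median -0.11). EIF1AX, which helps the ribosome scan for the start codon, rose by 0.56 ± 0.06 in MCF10AT1 and fell in MCF10Ca1a by 1.21 ± 0.06 against MCF10A and by 1.77 ± 0.06 against MCF10AT1. EIF2B1 fell by 0.32 ± 0.06 in MCF10AT1. EIF1, which guards start codon choice, rose in MCF10Ca1a by 0.91 ± 0.06 and 0.83 ± 0.06 against MCF10A and MCF10AT1.

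The 12 genes of mTORC1, its regulators and its S6 kinase substrates showed 5 rises and 7 falls in MCF10AT1 (median -0.15), 8 and 3 in MCF10Ca1a against MCF10A (median 0.56) and 7 and 2 against MCF10AT1 (median 0.63). DDIT4 (REDD1), an inhibitor of mTORC1, rose by 1.46 ± 0.06 in MCF10AT1 and by 2.12 ± 0.06 in MCF10Ca1a against MCF10A. SESN2, another inhibitor, rose by 1.58 ± 0.07 from MCF10AT1 to MCF10Ca1a. The S6 kinase gene RPS6KB1 fell by 0.34 ± 0.06 in MCF10AT1, RPS6KB2 by 0.42 ± 0.05 in MCF10Ca1a against MCF10A, and RHEB, the activator of mTORC1, by 0.68 ± 0.06 against MCF10AT1.

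Of 15 genes of CCR4-NOT and its silencing partners, 3 rose and 9 fell in MCF10AT1 (median -0.18), 3 rose and 9 fell in MCF10Ca1a against MCF10A (median -0.22) and 5 rose and 8 fell against MCF10AT1 (median -0.19). CNOT3 rose by 0.45 ± 0.06 and TNRC6C fell by 0.48 ± 0.09 in MCF10AT1. CNOT1, the scaffold of the complex and the subunit that binds EIF4A2, rose in MCF10Ca1a by 1.16 ± 0.07 and 1.496 ± 0.067 against MCF10A and MCF10AT1, and the deadenylase CNOT6L fell by 0.87 ± 0.06 and 1.04 ± 0.06.

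The 14 genes of the exon junction complex and NMD, the partners of EIF4A3, showed 2 rises and 8 falls in MCF10AT1 (median -0.25), 8 and 4 in MCF10Ca1a against MCF10A (median 0.39) and 10 and 3 against MCF10AT1 (median 0.85). MAGOHB rose by 0.33 ± 0.09 and SMG5 fell by 0.82 ± 0.06 in MCF10AT1. CASC3, a peripheral subunit of the complex, rose in MCF10Ca1a by 1.67 ± 0.05 against MCF10A and by 1.95 ± 0.06 against MCF10AT1, while the core subunits RBM8A and MAGOHB fell, by 1.20 ± 0.05 against MCF10A and by 1.503 ± 0.095 against MCF10AT1. The part of these genes in the EIF4A2 transcript shares was not tested.

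The genes whose log2 CPM over the 9 libraries was most like that of EIF4A2, among 9515 genes with a mean of at least 10 CPM, were NDUFB5 (Pearson r = 0.997), MRPL47 (0.996), MRPL33 (0.995), COX7A2L (0.994) and SMIM26 (0.993). For the log2 ratio of EIF4A2-201 to EIF4A2-219 they were TCF7, IL7R, TOB1, PEMT and FOXQ1, with r of 0.999 each. That ratio spans 14.9 log2 units because EIF4A2-201 is listed at 0 in MCF10A, so its r mainly separates MCF10A from the other lines. These are descriptions over 3 clusters of 3 libraries that also differ in depth, and have no p.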

How the data were processed

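Per the labels, polyadenylated RNA was made into stranded libraries. Per the submitters' processing notes, Salmon and the build hg38 were used; the Salmon version and the annotation are not given in the sources used here. The deposited tables hold the authors' estimated counts per gene and per transcript (with length-scaled and scaled gene variants) and TPM.

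Estimated counts were rounded. Genes were kept with filterByExpr (minimum count 10, total 15; 17910 of 62666) and tested with edgeR 4.0.16 (quasi-likelihood, TMM, R 4.3.3), with all 9 libraries in 1 fit. Transcript shares were tested with limma 3.58.1 on log2 odds against the rest of the gene (0.5 counts added; 73815 transcripts of 11802 genes). P-values were Benjamini-Hochberg adjusted over all features, with 0.05 as threshold. On simulated data for MCF10AT1 against MCF10A with 17419 genes, edgeR recovered 170 of 200 genes changed 2-fold, with 8 false calls. With 67504 transcripts, the share test recovered 4, 31, 39 and 45 of 50 transcripts whose odds changed 3-, 10-, 30- and 100-fold, with 26 false calls, and the alternative diffSpliceDGE 0, 14, 32 and 42, with 367 false calls. Small share changes can therefore be missed. The simulation changed few genes, so its recovery need not hold in the comparisons of MCF10Ca1a, where 18.3% and 13.6% of transcripts were called.

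Structures and sequences are from GENCODE 29 (GRCh38), matched by unversioned identifier for 183 of the 197 transcripts, of which 151 had the same version. Salmon's uncertainty in dividing reads between transcripts was not used. The members, lists and named genes (rules: all members; EIF4A2 transcripts at 5% or more; for the others the main transcript and the called one with the largest share difference; the largest called rise and fall of each list; the 5 genes most like EIF4A2; copies with 1% or more of a member's counts) were chosen with earlier results of these data known. DESeq2 1.42.0, diffSpliceDGE, other filters, scalings and pseudocounts, limma on TPM, thinning and leaving out each library were alternatives. Limits for counts of 0 use 3 counts and cover counting error only.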

Additional observations from a re-analysis of the deposited data

How the results depend on the processing

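Every EIF4A2 class kept its order of lines with shares from TPM, from transcripts past the filter, from thinned counts and without any 1 library. By TPM the cassette class held 41.3%, 30.5% and 23.1%, the exon 4-skipped class 22.2%, 30.1% and 31.5%, the retained-intron class 24.7%, 17.1% and 10.3%, and the coding class 22.3% and 35.0% in MCF10AT1 and MCF10Ca1a. The EIF4A2 log2 difference was 0.999, 1.002 and 0.999 (MCF10Ca1a against MCF10A) and 0.572, 0.573 and 0.572 (against MCF10AT1) on log2(TPM + 1), log2(TPM + 0.1) and unfiltered log2(TPM + 1).

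From CPM, EIF4A2 to EIF4A1 was 0.172, 0.220 and 0.385, EIF4EBP1 to EIF4E 0.486, 0.503 and 1.29, and EIF4G1 34.9%, 32.5% and 54.3% of the scaffolds. From coding transcripts the first was 0.0273, 0.0669 and 0.187, the second 0.739 and 1.82 in MCF10AT1 and MCF10Ca1a, and EIF4G1 39.3% in MCF10Ca1a. Unmatched EIF4G3 transcripts, with 32.5% of the TPM of EIF4G3 in MCF10Ca1a, were not counted as coding in the last of these.

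Called genes of the 9 in MCF10AT1 against MCF10A fell to 5 with no filter and with log2(TPM + 0.1), and ran from 5 (without MCF10A replicate 2 or MCF10AT1 replicate 1 or 2) to 8 without single libraries. EIF4E2 in MCF10Ca1a against MCF10A turned to 0.0631, 0.0636 and 0.0631 on the 3 TPM settings. The cause was not tested.

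Called transcripts in MCF10Ca1a against MCF10A were 10 with diffSpliceDGE, 7 among transcripts at 5% and 11 to 16 without single libraries (11 and 12 without MCF10A replicate 1 and 2). Against MCF10AT1 they were 6 with diffSpliceDGE, 10 with all transcripts of at least 1 count, 5 among those at 5%, and 7 to 17 without single libraries, with 13 or fewer for each one but MCF10A replicates 1 and 3. Fewer transcripts enter the 5% setting, and the cause of the other losses was not tested. Sign changes, all at differences near 0, were seen without single libraries for EIF4E-208 in MCF10AT1 against MCF10A (-0.068 to 0.23), EIF4G3-205 in MCF10Ca1a against MCF10A (-0.077 to 0.091, and 0.027 thinned) and EIF4A1-229 in MCF10Ca1a against MCF10AT1 (-0.13 to 0.20), and from TPM for EIF4E2-203 and EIF4E2-205 where they are listed at 0 (-0.064).

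Deviations of same-numbered libraries from their line means had r from -0.0597 to 0.0451, and those of other pairs from -0.0742 to 0.0955. Such deviations sum to 0 within a line, so these values cannot decide whether the numbers pair libraries. The labels do not say. With the replicate block, 7, 8 and 9 genes and 3, 14 and 8 transcripts were called. MCF10Ca1a had the fewest counts, so rare transcripts are least certain there.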

Other observations

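NDUFB5 (chr3:179604690-179627647) and MRPL47 (chr3:179588285-179604654), the 2 genes whose levels were most like that of EIF4A2, lie next to each other on the same chromosome arm as EIF4A2. EIF4G1 (chr3:184314495-184335358) lies between them and EIF4A2. In MCF10AT1 against MCF10A it had a log2 change of -0.33, beside 0.50 for EIF4A2, 0.52 for NDUFB5 and 0.47 for MRPL47. NDUFB5, a subunit of mitochondrial complex I, had means of 90.1, 130 and 159 CPM in MCF10A, MCF10AT1 and MCF10Ca1a, and MRPL47, a mitochondrial ribosomal protein, 67.8, 94.0 and 104 CPM. MRPL33 and COX7A2L, also genes of mitochondrial proteins, are on chromosome 2 and SMIM26 on chromosome 20.

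This was noticed after the values were seen, and the neighbours of EIF4A2 were then listed. Of 18 tested genes within 1 Mb, 7 were higher and 5 lower in MCF10AT1 against MCF10A (median log2 change 0.11), 6 and 4 in MCF10Ca1a against MCF10A (median -0.04) and 5 and 5 in MCF10Ca1a against MCF10AT1 (median -0.18), beside the background shares given above. Single neighbours ranged from -3.98 to 4.17 in MCF10Ca1a against MCF10A. The copy number of the region was not measured.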
